A study of Mus musculus with 6 samples.

Results

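The metallothioneins are 4 of the 23726 gene models in the deposited table: Mt1, Mt2, Mt3 and Mt4, taken by name and measured in each of 6 mouse libraries. The biopsies were 1 healthy skin, 2 distinct papillomas and 1 tumour, the lesions having been raised with the carcinogen DMBA and the tumour promoter TPA. The other libraries were of mSCC-20 and mSCC-38, cells from DMBA/TPA skin tumours that the submitters call non-tumorigenic and highly tumorigenic; culture is stated for mSCC-20, and both are called cultures here. The sources used here do not give strain, age or genotype, nor whether the papillomas came from separate mice or both cultures from the same tumour. The p-values therefore cover no more than the spread between the 2 papillomas, which may not include differences between mice. Each culture is 1 isolate, and only papilloma had more than 1 library. Values of the other groups therefore carry no replicate error.

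Metallothioneins are small, cysteine-rich proteins of the cytoplasm that bind zinc, copper and toxic metals such as cadmium. Mt1 and Mt2 are made in most tissues, and their transcription is known to be raised by zinc and cadmium through the transcription factor Mtf1, which binds metal response elements near their starts, and also by glucocorticoids, interleukin 6 and oxidants. Mt3 is known mainly from brain. Mt4 is known from the differentiating layers of stratified squamous epithelium such as skin and tongue.

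The 4 genes lay in 43124 bases of chromosome 8 (build mm9), all on the plus strand, in the order Mt4 (96661104 to 96662931), Mt3 (96676507 to 96678048), Mt2 (96696518 to 96697467) and Mt1 (96702989 to 96704227). The table listed no other gene model overlapping any of them. In the GENCODE M21 transcripts, which follow build GRCm38, each of the 4 coding sequences held 20 cysteine codons, out of 61 codons in Mt1 and in Mt2, 68 in Mt3 and 62 in Mt4. Coding sequences of Mt1 and Mt2 were 79.2% identical, those of Mt2 and Mt4 72.7%, and those of Mt3 and Mt4 62.7%. No run of 35 bases in the Mt1, Mt3 or Mt4 reference transcript occurred in a transcript of another gene. For Mt2, 53.5% of such runs also occurred, on the opposite strand, in Gm45774, an antisense transcript across the Mt2 gene. Whether counting used strand is not stated in the sources used here. Within the shared stretch, reads of Mt2 and of that transcript therefore could not be told apart in the counts.

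The sequences before Mt1, Mt2 and Mt4 are shown because these 3 genes carry nearly all of the family's counts and differed in which libraries they were high in. Each line gives the 250 bases before the RefSeq transcript start (RefSeq, build GRCm38.p6, plus strand, Mt1 at chr8:94178839-94179088, Mt2 at chr8:94172368-94172617, Mt4 at chr8:94136954-94137203), with matches to the metal response element core in capitals. The core was searched as TGCACNC and TGCGCNC on both strands.
Mt1: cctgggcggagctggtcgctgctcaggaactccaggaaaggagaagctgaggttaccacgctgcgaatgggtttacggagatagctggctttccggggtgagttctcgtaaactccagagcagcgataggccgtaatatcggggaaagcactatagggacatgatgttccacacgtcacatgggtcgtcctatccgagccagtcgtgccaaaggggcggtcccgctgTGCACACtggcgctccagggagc
Mt2: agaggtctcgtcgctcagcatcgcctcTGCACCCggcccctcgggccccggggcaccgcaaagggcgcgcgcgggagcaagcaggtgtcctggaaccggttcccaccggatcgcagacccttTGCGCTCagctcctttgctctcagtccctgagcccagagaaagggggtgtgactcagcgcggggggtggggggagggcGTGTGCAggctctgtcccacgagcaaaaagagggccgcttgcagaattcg
Mt4: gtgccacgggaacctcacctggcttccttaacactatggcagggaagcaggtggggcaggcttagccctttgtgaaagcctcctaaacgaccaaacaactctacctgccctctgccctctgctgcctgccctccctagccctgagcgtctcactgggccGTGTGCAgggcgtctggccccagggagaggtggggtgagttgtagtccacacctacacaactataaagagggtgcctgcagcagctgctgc
The upstream stretch of Mt1 held 1 core, that of Mt2 held 3 and that of Mt4 held 1. For Mt1 and Mt2 the RefSeq start lies before the TATA box (TATAAA, searched on the plus strand), by 121 bases in Mt1 and 135 in Mt2, so further cores fall between the RefSeq start and the TATA box. In Mt4 the TATA box lies 30 bases before the RefSeq start. The later cores of Mt1 and Mt2 are given as short sites, again with the core in capitals.
Mt1, 2 bases after the start: agctcTGCACTCcgccc
Mt1, 20 bases after the start: aaaagTGCGCTCggctc
Mt1, 84 bases after the start: ctgctGGGTGCAaaccc
Mt1, 98 bases after the start: cccttTGCGCCCggact
Mt2, 4 bases after the start: gggtcGTGCGCAggccc
Mt2, 58 bases after the start: agggcGTGTGCAggcgg
Mt2, 77 bases after the start: ggggcGCGTGCAtggtg
Mt2, 111 bases after the start: gctttTGCGCTCgaccc
From 250 bases before the RefSeq start to the start codon, the count of cores was 5 in Mt1, 7 in Mt2, 3 in Mt3 and 1 in Mt4, and every one of them lay before the TATA box. In windows of 300 bases (250 before and 50 after a start), Mt1 held 3 cores, Mt2 held 4, and Mt3 and Mt4 held 1 each. Of 32851 such windows in the RefSeq table, 25.7% held at least 1 core, 1.97% held at least 3 and 0.518% at least 4. The Mt2 window also held 1 AP-1 site (TGACTCA or TGAGTCA, each the other strand of its partner), which 5.2% of windows held, and 1 antioxidant response element core (TGACNNNGC), which 12.4% held. The AP-1 letters lie within the antioxidant core's stretch, so these are overlapping matches at 1 place. Both strands were searched for these and for the next motifs. None of the 4 windows matched the Stat site TTCNNNGAA or the E-box CACGTG, which says only that these letters were not in these windows. A match is a description of letters and not of a bound site.

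**Figure D1:**
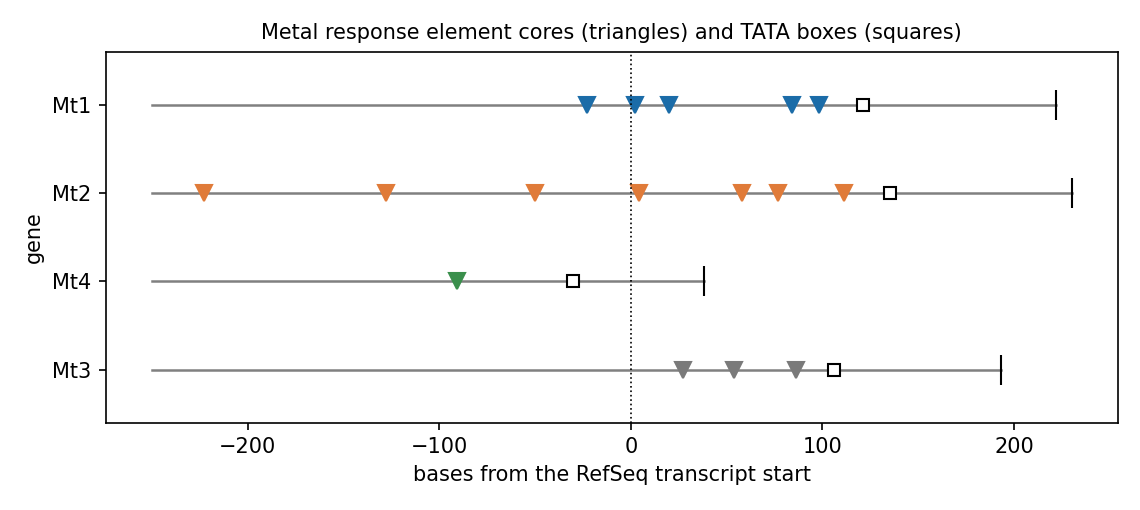
Position of metal response element cores (triangles) and TATA boxes (open squares) in the 4 genes, as bases from the RefSeq transcript start (dotted line), from 250 bases before it to the start codon (vertical bar). Mt1 has 5 cores and Mt2 has 7, all before the TATA box, while Mt4 has 1.

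The libraries held between 25140489 counts (papilloma 1) and 42992597 counts (the tumour), and 3 counts, the limit that a count of 0 allows, were 0.0604 to 0.141 CPM. CPM are counts scaled to library size with TMM factors, and intervals of single libraries and of their ratios are exact Clopper-Pearson intervals at 95%, which cover counting error only. The labels gave RNA integrity numbers of 7.5 for skin, 8.4 and 8.2 for papilloma 1 and 2, 9.1 for the tumour, and 9.3 and 9.6 for mSCC-20 and mSCC-38. Summed basal keratinocyte markers were at 7924 to 35184 CPM in the 4 biopsies and at 17818 and 10894 CPM in the cultures. T cell markers were at 0 in 4 of 5 and 5 of 5 genes in the cultures. Hair markers (10 genes) summed to 18730 CPM in skin, to 59.1 in papilloma 1, to 5469 in papilloma 2, and to 9.32 to 47.5 in the other 3 libraries.

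Mt1 was nearly level across the biopsies and highest in mSCC-38. It was at 211 CPM in skin, 237 in papilloma 1, 239 in papilloma 2, 238 in the tumour, 280.0 in mSCC-20 and 623 in mSCC-38. The 2 papillomas and the tumour overlapped in their counting intervals (230.4 to 243 CPM in papilloma 1, 233 to 244 in papilloma 2, 233 to 242 in the tumour), skin lay below them (207 to 215) and both cultures above. Among the 4 biopsies the highest level was 1.13-fold the lowest. The papilloma mean was 238 ± 1.2 CPM (SD, n = 2), and edgeR's quasi-likelihood test gave a log2 fold change against skin of 0.17 ± 0.20 (SE, 95% interval -0.34 to 0.69, adjusted p = 0.534). For tumour against papilloma it was -0.00025 ± 0.20 (95% interval -0.51 to 0.51, edgeR adjusted p = 1). Changes within these intervals were not excluded, and larger ones can also miss a threshold adjusted over all genes. The sign of the skin comparison turned with total-count scaling (-0.25, edgeR adjusted p = 0.335). Under that scaling the median of all genes tested also moved, from -0.06 to -0.48.

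Mt2 was at a like level in skin and papilloma and lower in the tumour and in mSCC-20. It was at 222 CPM in skin, 202 in papilloma 1, 226 in papilloma 2, 134 in the tumour, 113 in mSCC-20 and 342 in mSCC-38. Skin lay between the papillomas, and the tumour below both of them. The papilloma mean was 214 ± 17.1 CPM (SD, n = 2), with a log2 fold change against skin of -0.05 ± 0.20 (SE, 95% interval -0.57 to 0.47, edgeR adjusted p = 0.872). For tumour against papilloma the log2 fold change was -0.68 ± 0.21 (95% interval -1.21 to -0.14) and did not pass over all genes (edgeR adjusted p = 0.0789, unadjusted p = 0.0236), whereas DESeq2's Wald test called it (adjusted p = 0.0171).

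Mt4, the member of differentiating squamous epithelium, had the widest range of the 4 genes. It was at 139 CPM in skin, 15.3 in papilloma 1, 53.4 in papilloma 2, 0.166 in the tumour, 0.617 in mSCC-20 and 0.0602 in mSCC-38, from 6883, 326, 1509, 7, 19 and 2 counts. Every lesion and culture was below skin, the papillomas lay between skin and the rest, and papilloma 2 was 3.49-fold above papilloma 1 (95% interval 3.09 to 3.95). Against papilloma (34.4 ± 26.95 CPM, SD, n = 2) Mt4 fell in the tumour, with a log2 fold change of -7.67 ± 1.17 (SE, 95% interval -10.7 to -4.62, edgeR adjusted p = 0.0151). Papilloma against skin was at -2.01 ± 0.67 and missed the threshold (edgeR adjusted p = 0.0849), which it passed without the filter on low counts (edgeR adjusted p = 0.0409). The log2 ratio of CPM to skin, with 0.5 CPM added to each side, was -3.14 with papilloma 1 alone and -1.37 with papilloma 2 alone. On that scale the tumour's log2 ratio to papilloma was -5.71 for both papillomas together, -4.57 for papilloma 1 alone and -6.34 for papilloma 2 alone, with no test. In bulk biopsies, fewer cells of a type and less RNA per cell cannot be told apart.

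Mt3, known from brain, was barely detected in all libraries, with 34 counts in skin, 2 in each papilloma, 21 in the tumour, 6 in mSCC-20 and 4 in mSCC-38. These are 0.685, 0.0939, 0.0708, 0.497, 0.195 and 0.120 CPM in that order. By value skin was highest and the papillomas lowest, but many counting intervals overlapped. Skin (0.474 to 0.957 CPM) overlapped the tumour (0.308 to 0.760), and the tumour overlapped mSCC-20 (0.0715 to 0.424). Papilloma 1 (0.0114 to 0.339) and papilloma 2 (0.00857 to 0.256) overlapped mSCC-20 and mSCC-38 (0.0328 to 0.308). Both papillomas lay below the interval of skin. Per length, Mt1 was 306-fold above Mt3 in skin. Mt3 was lower in papilloma than in skin (log2 fold change -3.02 ± 0.74, edgeR adjusted p = 0.044), a call that rests on 2 counts per papilloma and was not made by DESeq2's Wald test (unadjusted p = 0.13, adjusted p not given by the tool). With papilloma 1 and papilloma 2 the ratios of skin to papilloma were 7.29-fold (95% interval 1.87 to 62.7) and 9.67-fold (95% interval 2.48 to 83.1). For tumour against papilloma the log2 fold change of 2.57 ± 0.77 did not pass (edgeR adjusted p = 0.0758). The 6 Schwann cell and nerve markers summed to 205 CPM in skin, 89.5 and 87.3 in the papillomas and 79.4 in the tumour. The sum of the 5 neuron markers went the other way, most of it Tubb3. It was at 15.4 CPM in skin, 68.0 and 45.0 in the papillomas and 42.2 in the tumour. By edgeR, 1 of these markers, Tubb3, was called higher in papilloma than in skin and 1, Syt1, lower. Syt1 was at 1.47 CPM in skin and 0.0939 and 0.177 in the papillomas. Its log2 fold change was -3.36 (edgeR adjusted p = 0.0279), a call that DESeq2's Wald test did not make (adjusted p = 0.149). The part of either list in the Mt3 values was not tested.

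So 1 of the 4 genes, Mt3, was called lower in papilloma than in skin, and none was called higher (edgeR; unadjusted p under 0.05 in 0, DESeq2 calls 0). Among all 16353 genes tested, 14.1% were called lower and 12% higher in that comparison by edgeR (2298 and 1959 genes, against 3484 and 1015 with total-count scaling and 1740 and 2348 by DESeq2). In tumour against papilloma, 1 of the 4, Mt4, was called lower and none higher (edgeR; unadjusted p under 0.05 in 1, Mt3, DESeq2 calls 0), where 10.6% of all genes were called lower and 11.9% higher. The papillomas supply the 1 residual degree of freedom of the test, so skin and tumour are assumed to vary as they do.

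**Figure D2:**
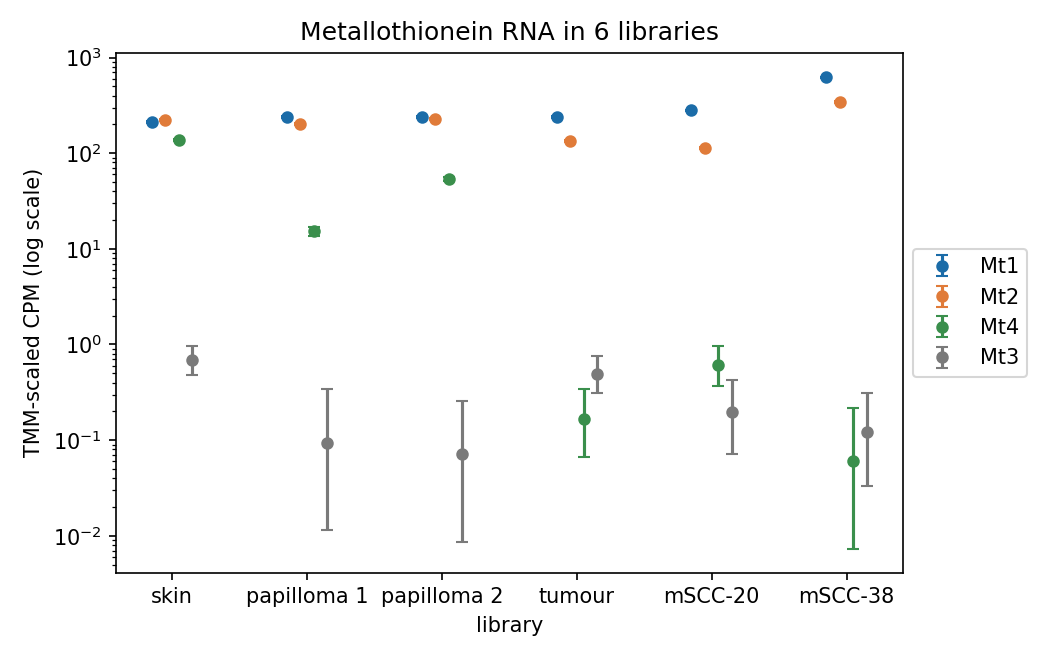
Level of each metallothionein RNA in the 6 libraries, in TMM-scaled CPM on a log axis, 1 point per library, with bars for the 95% Clopper-Pearson interval (counting error only). Mt1 and Mt2 stay between 113 and 623 CPM, while Mt4 runs from 139 CPM in skin to 0.0602 CPM in mSCC-38.

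Against skin, the single tumour library had 837-fold less Mt4 (95% interval 406 to 2082) by its 7 counts. The log2 ratio was -7.71 with 0.5 CPM added and -6.02 with 2 CPM added, and the level in the tumour lay within the range to which abundant hair genes had dropped (0.0495% to 0.289% of skin). This ratio met the rule of size, a ratio of 4 or more with 10 CPM or more on the higher side. Of the genes with that level, 9.14% (of 11114) were lower by that rule. Mt1 in the tumour was at 1.12-fold (95% interval 1.09 to 1.16) and Mt2 at 0.604-fold (0.585 to 0.624) of skin, intervals that cover counting error only. The direction of Mt1 turned with the scaling: its log2 ratio to skin was 0.17 with TMM, -0.12 with total-count scaling and -0.12 from the deposited RPKM. That of Mt2 went from -0.73 to -1.01 with total-count scaling. Neither gene met the rule. Both values are of 1 library per side and have no replicate check. Between the papillomas no member met the rule, which 1.17% of 9962 genes met.

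The cultures differed from each other in the opposite sense for the pair Mt1 and Mt2 than for Mt4. In mSCC-38, the tumorigenic culture, Mt1 was 2.22-fold (95% interval 2.17 to 2.28) and Mt2 3.03-fold (2.91 to 3.14) the level in mSCC-20. Mt4 was 10.3-fold lower (2.48 to 90.9) in mSCC-38, from 2 counts against 19. These are levels of only 0.0602 and 0.617 CPM, and the size of the difference depended on the amount added. Its log2 ratio was -0.996 with 0.5 CPM added and -0.35 with 2 CPM added. No member met the rule of size, which 10.1% of 9795 genes met. Measured against the tumour biopsy, mSCC-38 had 2.62-fold the Mt1 and 2.55-fold the Mt2, and mSCC-20 1.18-fold the Mt1 and 0.843-fold the Mt2. No member met the rule in either of these comparisons, which 13.3% and 20.4% of genes met for mSCC-38 and mSCC-20. Each comparison has 1 library per side.

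The balance within the pair of broadly expressed genes moved between libraries, in a measure that does not depend on scaling. Mt2 made up 51.2% of the summed Mt1 and Mt2 counts in skin (95% interval 50.6 to 51.9), 46.1% in papilloma 1 (45.1 to 47.1) and 48.7% in papilloma 2 (47.8 to 49.6). The share was 36.1% in the tumour (35.3 to 36.8), 28.8% in mSCC-20 (27.98 to 29.6) and 35.5% in mSCC-38 (34.96 to 36.0). The tumour and both cultures thus stood below all of skin and papilloma. They also had the higher RNA integrity numbers (9.1, 9.3 and 9.6, against 7.5 in skin and 8.4 and 8.2 in the papillomas). RNA quality and kind of sample therefore cannot be told apart in this split. The gap from the lower papilloma to the tumour was 9.97 percentage points, the gap between the papillomas 2.64 points, and that from skin to the higher papilloma 2.53 points, less than the papillomas' own gap. With 1 tumour and 1 skin library no test over samples was made. The Mt2 counts could include reads of the antisense transcript, whose level was not measured here.

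**Figure D3:**
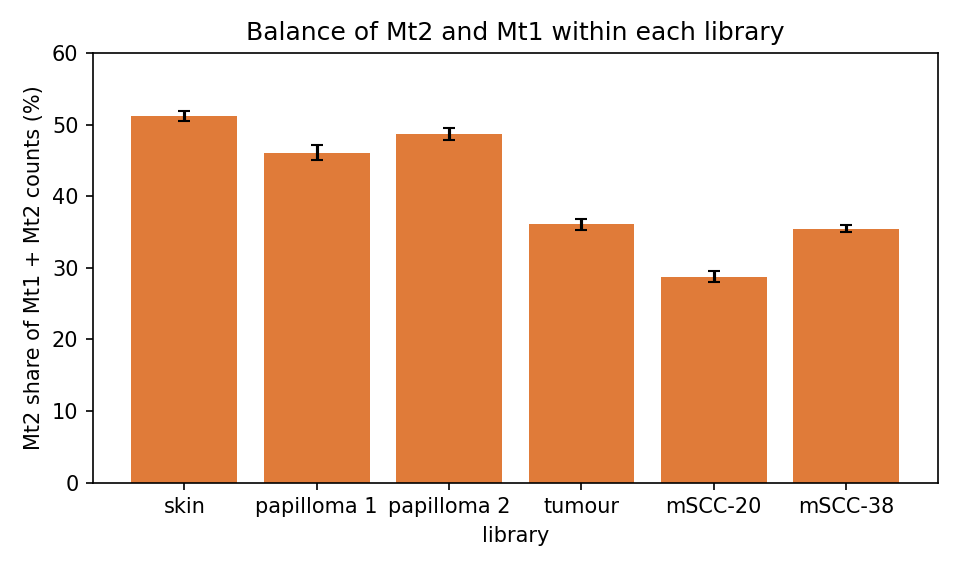
Mt2 counts as a percentage of Mt1 plus Mt2 counts in each library, with 95% Clopper-Pearson intervals (counting error only). Skin and the papillomas sit between 46.1% and 51.2%, the tumour and cultures between 28.8% and 36.1%.

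Per gene length, the family was split in nearly equal parts between Mt1, Mt2 and Mt4 in skin (34.0%, 34.8% and 31.0% of the summed CPM per kb). Mt4 made up 4.67% in papilloma 1, 13.9% in papilloma 2, 0.0624% in the tumour, 0.219% in mSCC-20 and 0.00874% in mSCC-38. Mt3 made up at most 0.136%, in the tumour. In mSCC-38 Mt1 alone was 65.1% and Mt2 34.9%. The summed CPM per kb of all 4 genes was 1152 in skin, 845 and 990 in the papillomas, 685 in the tumour, 726 in mSCC-20 and 1775 in mSCC-38. The lower sums of papilloma 1 and the tumour against skin are sums in which Mt4 took 357 CPM per kb in skin, 39.5 in papilloma 1 and 0.427 in the tumour.

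Mt4 was set beside markers of the epithelial compartments of skin. Of 9 listed suprabasal and granular keratinocyte markers, 8 were in the table (Flg was not), and they summed to 9670 CPM in skin, to 34694 in papilloma 1, to 29251 in papilloma 2, to 1215 in the tumour, 351 in mSCC-20 and 202 in mSCC-38, none of them at 0 in any library. By edgeR, 4 of these 8 markers rose and none fell (0 with an unadjusted p under 0.05, DESeq2 calls 0) in papilloma against skin, among them Krt1, a keratin of the spinous layer, and 6 fell and none rose (again 0 and 0) in tumour against papilloma. In papilloma, Mt4 was thus at 11.04% and 38.5% of its skin level where this marker sum was at 359% and 302%. Of 10 hair follicle and shaft markers 1, Foxn1, fell and none rose (0 and 0) in papilloma against skin. Over all genes tested by edgeR, 12% rose and 14.1% fell in papilloma, and 11.9% rose and 10.6% fell in the tumour. As a share of the skin level, the hair sum was 0.316% in papilloma 1 and 29.2% in papilloma 2, and Mt4 was higher in papilloma 2 as well. The part of either marker set in the Mt4 values was not tested.

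The lowest Mt4 values were close to the level at which abundant hair genes were still counted. For the 6 hair markers with at least 500 CPM in skin, the level in the tumour was 0.0495% to 0.289% of skin, in mSCC-20 0.0459% to 0.114%, and in mSCC-38 0.0356% to 0.0598%. Mt4 stood at 0.12% in the tumour and 0.0434% in mSCC-38, within these ranges, and at 0.445% in mSCC-20, above the range. In the tumour and mSCC-38, Mt4 was thus not told apart from the level of these hair genes, of which Krt34 was at 0.876 and 0.451 CPM. In papilloma 1 the same hair markers were at 0.0507% to 0.329%, and Mt4 at 11.04% was above them.

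**Figure D4:**
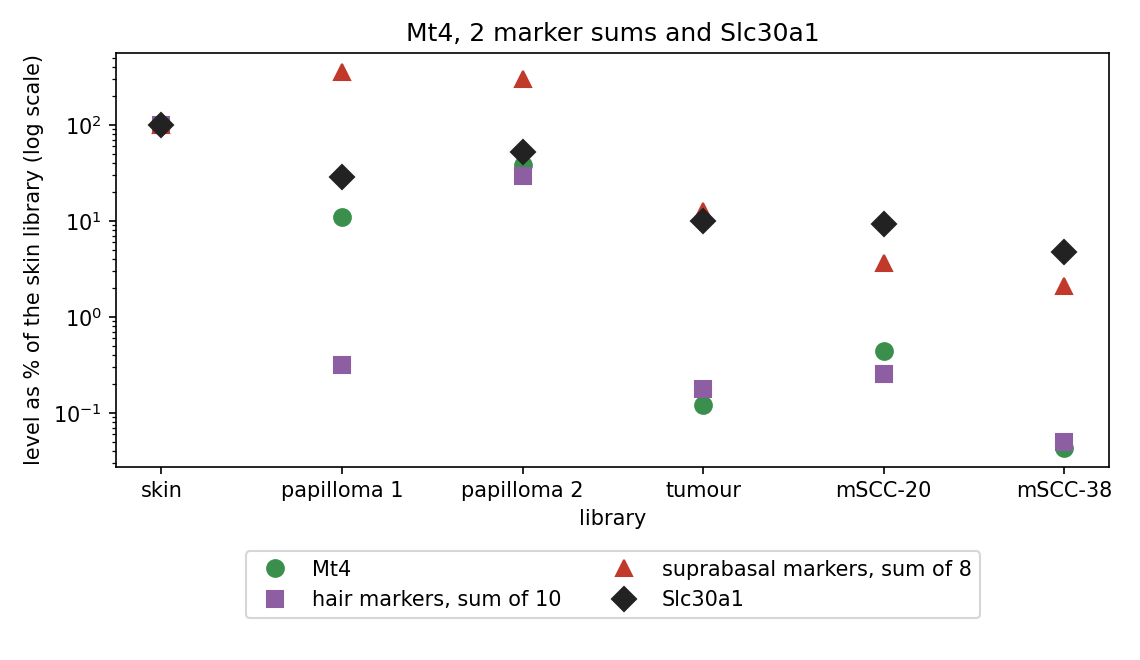
Mt4, the summed hair markers (10 genes), the summed suprabasal markers (8 genes) and the zinc exporter gene Slc30a1 as a percentage of their own level in skin, on a log axis, 1 point per library. Mt4 is at 11.04% and 38.5% in the papillomas, where the suprabasal sum is at 359% and 302%, and at 0.12% in the tumour.

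The genes next to the cluster did not share the Mt4 pattern across the libraries. Within 100 kb, measured from the nearest edges, the table listed Ogfod1 and Bbs2 on the Mt4 side and Nup93 on the Mt1 side. Bbs2, which encodes a subunit of the ciliary BBSome, lay 38392 bases from Mt4 and was at 17.7 CPM in skin, 5.92 and 8.11 in the papillomas, 6.32 in the tumour, 11.8 in mSCC-20 and 17.8 in mSCC-38. It fell in papilloma (log2 fold change -1.33 ± 0.29, edgeR adjusted p = 0.0331) and was at -0.15 ± 0.30 in tumour against papilloma. Nup93, a nuclear pore gene, rose in papilloma (0.62 ± 0.16, edgeR adjusted p = 0.0458) and had its highest level, 276 CPM, in mSCC-20, against 121 CPM in mSCC-38. Ogfod1, which encodes a ribosomal protein hydroxylase, was at 40.3 to 46.5 CPM in skin and papilloma, 37.8 in the tumour, 156 in mSCC-20 and 47.7 in mSCC-38. In the cultures these last 2 neighbours were higher in mSCC-20, while Mt1 and Mt2 were higher in mSCC-38.

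The genes whose profiles over the 6 libraries were most like each member were ranked by Euclidean distance between mean-centred log2 (CPM + 0.5) values, among 11837 other genes with at least 10 CPM in some library. For Mt1 the nearest were Pnp, a purine salvage enzyme gene (distance 0.159, 23.2 to 24.9 CPM in the biopsies and 62.4 in mSCC-38), Fbf1, Akr1b10, Rab13 and Rnf145. For Mt2 they were Il6st, the gene of the shared receptor chain of interleukin 6 family cytokines (distance 0.319), Gna11, Lynx1, Slc25a35 and 2010111I01Rik. Il6st was at 153 CPM in skin, 134 and 141 in the papillomas, 74.2 in the tumour, 62.8 in mSCC-20 and 189 in mSCC-38, and it fell in tumour against papilloma (-0.89 ± 0.18, edgeR adjusted p = 0.0304). For Mt4 they were the transglutaminase gene Tgm6 (distance 0.981), the carboxypeptidase gene Cpm, the calpain gene Capn12, Krt75, a keratin of the hair companion layer, and the small proline-rich protein gene Sprr4. Tgm6 was at 105 CPM in skin, 13.9 and 32.0 in the papillomas and 0.260 in the tumour. Mt1 and Mt2 were at a distance of 1.21 from each other, which put Mt2 at rank 2047 for Mt1 and Mt1 at rank 789 for Mt2. Mt4 was at 8.6 from Mt1 and 7.55 from Mt2. The distances describe 6 libraries.

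The zinc side of the pathway was read from 3 genes first. Mtf1, the zinc-sensing activator of Mt1 and Mt2, was at 37.1 CPM in skin, 59.4 and 50.6 in the papillomas, 35.04 in the tumour, 49.1 in mSCC-20 and 32.4 in mSCC-38. Neither comparison passed for it (log2 fold change 0.57 ± 0.17, edgeR adjusted p = 0.0649 in papilloma, and -0.65 ± 0.17, edgeR adjusted p = 0.0539 in the tumour). Slc30a1, the zinc exporter of the plasma membrane and a known Mtf1 target, was at 391 CPM in skin, 112 and 205 in the papillomas, 38.9 in the tumour, 36.6 in mSCC-20 and 18.8 in mSCC-38. All lesions and cultures were below skin. It fell in tumour against papilloma (-2.02 ± 0.43, edgeR adjusted p = 0.0339), and papilloma against skin was at -1.30 ± 0.38 (edgeR adjusted p = 0.0627). DESeq2's Wald test called Slc30a1 lower in papilloma than in skin (-1.27, adjusted p = 0.00427). Its window of 300 bases held 2 metal response element cores, as at least 2 did in 7.11% of windows. In mSCC-38, where Mt1 and Mt2 were highest, Slc30a1 was lowest, at 4.8% of its skin level. Slc39a10, a zinc importer gene that Mtf1 is known to repress, was at 225 CPM in skin, 56.4 and 117 in the papillomas, 80.8 in the tumour, 80.1 in mSCC-20 and 67.5 in mSCC-38. By edgeR it passed in neither comparison (adjusted p = 0.0751 and 0.878). DESeq2's Wald test called Slc39a10 lower in papilloma than in skin (-1.33, adjusted p = 0.00848).

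Of 8 metal response genes, 1 fell and none rose by edgeR in papilloma (3 higher with an unadjusted p under 0.05, DESeq2 calls 2; median log2 fold change 0.32, against -0.06 over all genes), and 3 fell and 1 rose in the tumour (median -0.39, against -0.02). Over all genes tested, edgeR called 12% higher and 14.1% lower in papilloma, and 11.9% higher and 10.6% lower in the tumour. These shares stand beside the zinc and copper lists below as well. The gene that fell in papilloma was Gclc, of the glutathione synthesis enzyme, at -0.73 ± 0.19 (edgeR adjusted p = 0.0485), and it rose in the tumour by 0.97 ± 0.19 (edgeR adjusted p = 0.0269). Beside Slc30a1, the falls in the tumour were Hmox1, the heme oxygenase gene (-1.78 ± 0.44, edgeR adjusted p = 0.0494), and Hspa1a, a heat shock gene (-1.24 ± 0.21, edgeR adjusted p = 0.0192).

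Zinc exporters and vesicle loaders (8 of 10 tested) held 1 rise and no fall by edgeR in papilloma (2 lower with an unadjusted p under 0.05, DESeq2 calls 1), with a median of 0.32, and 1 rise and 2 falls in the tumour, with a median of -0.13. Slc30a7, which loads zinc into the secretory pathway, rose in papilloma (0.96 ± 0.18, edgeR adjusted p = 0.0242). Slc30a4, a vesicle loader, rose in the tumour (0.92 ± 0.17, edgeR adjusted p = 0.0253), and was at 297 CPM in mSCC-38 against 39.3 in mSCC-20, past the rule of size, which 6.8% of genes met as higher and 3.31% as lower. Among the metal response genes Ndrg1, a stress-induced gene, met it too, at 282 against 66 CPM. Slc30a3 had 0 counts in the tumour, at least 5.88-fold lower than in papilloma (0.376 and 0.460 CPM, the floor of 3 counts being for the tumour library). With that bound in place of its fitted value Slc30a3 was still the lowest of the tested genes, so the list median of -0.13 could not change.

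Zinc importers (12 of 14 tested) held no call by edgeR in papilloma (2 higher and 6 lower with an unadjusted p under 0.05, DESeq2 calls 0 and 1; median -0.26), and 1 rise and 2 falls in the tumour (median -0.12). Slc39a2, an importer of keratinocytes, was at 14.8 CPM in skin, 13.99 and 17.8 in the papillomas and 0.639 in the tumour, a log2 fold change against papilloma of -4.63 ± 0.34, edgeR adjusted p = 0.00351. Slc39a8 was at 196 CPM in skin, 45.6 and 102 in the papillomas and 5.14 in the tumour (-3.84 ± 0.60, edgeR adjusted p = 0.0155). It stood at 22.5 CPM in mSCC-38 and 4.29 in mSCC-20. Slc39a4, the importer of intestinal zinc uptake, rose in the tumour from low levels (0.610 and 0.602 CPM in the papillomas, 2.58 in the tumour, edgeR adjusted p = 0.0355), a call that DESeq2's Wald test did not make (adjusted p = 0.137). It was at 44.0 CPM in mSCC-20 and 6.65 in mSCC-38, the reverse of the order of Mt1 and Mt2.

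Copper handling genes (14 tested) held 2 rises and 1 fall in papilloma (median 0.08) and 2 rises and 4 falls in the tumour (median -0.0032). All genes tested had 12% higher and 14.1% lower in papilloma, and 11.9% and 10.6% in the tumour. The importer genes Slc31a1 and Slc31a2 fell in the tumour, at log2 fold changes of -1.17 and -1.34. Atp7a, the copper exporter gene, rose in papilloma (1.13 ± 0.20, edgeR adjusted p = 0.0221) and fell in the tumour (-0.80 ± 0.20, edgeR adjusted p = 0.0486). Steap3, a metal reductase gene, fell in papilloma and rose in the tumour (-0.89 and 1.49, edgeR adjusted p = 0.0192 and 0.0056).

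**Figure D5:**
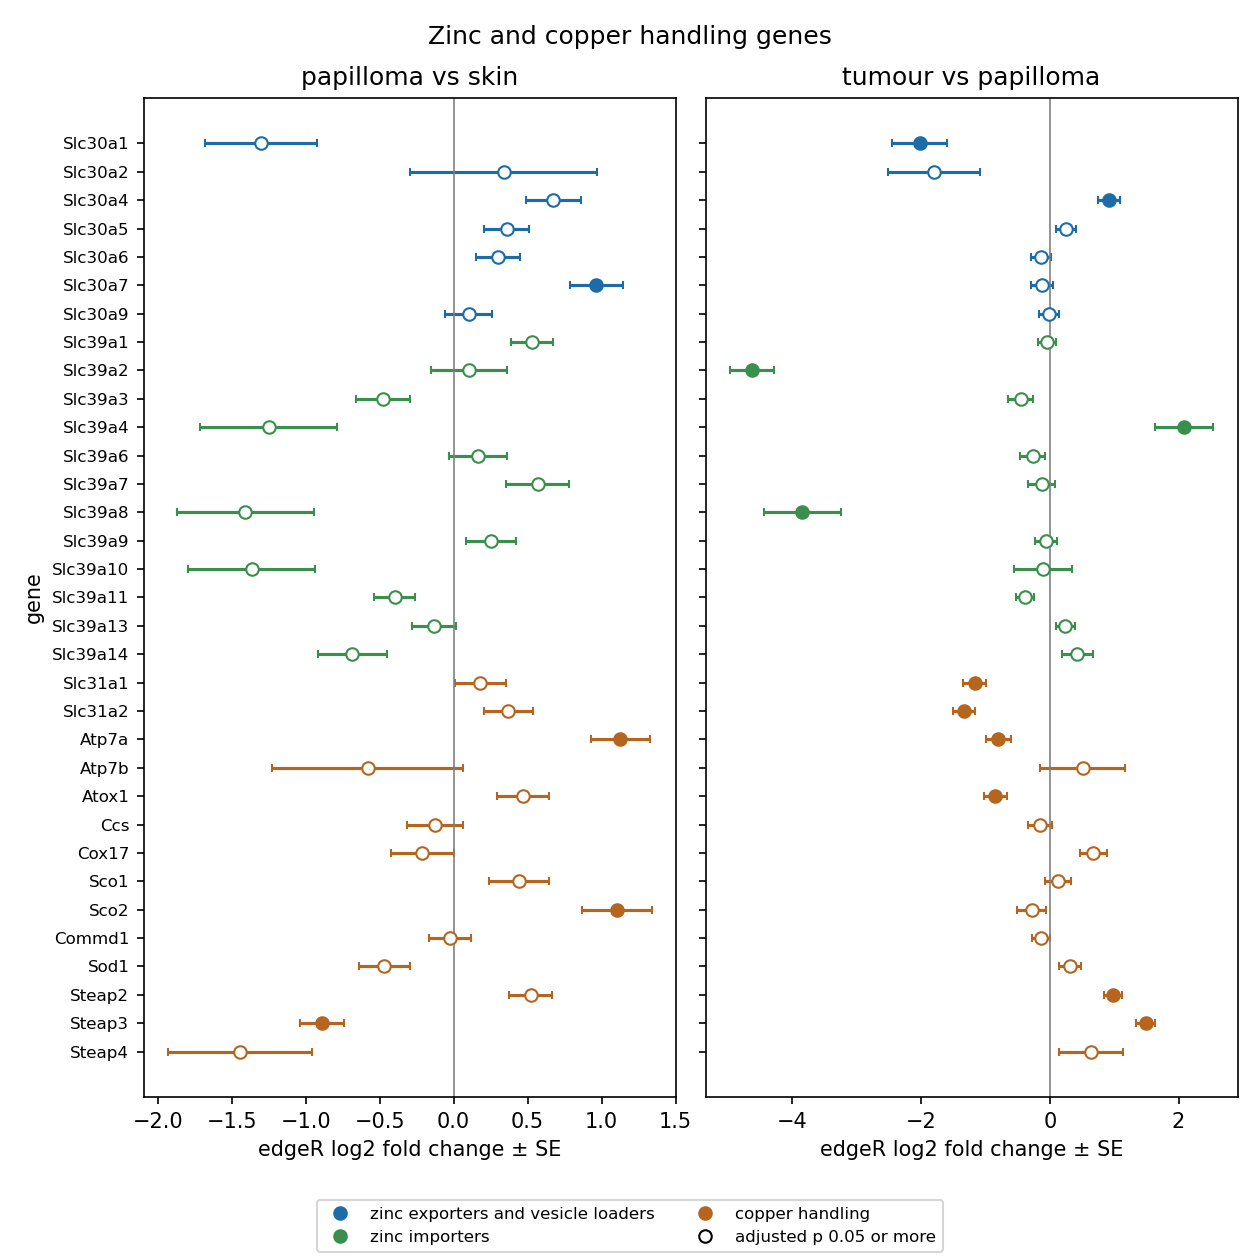
edgeR log2 fold change with SE (bars) of zinc and copper handling genes in papilloma against skin and in tumour against papilloma. Filled points had an adjusted p under 0.05. In the tumour the zinc importer genes Slc39a2 (-4.63) and Slc39a8 (-3.84) and the exporter gene Slc30a1 (-2.02) are at the left. Slc30a3 is not drawn because it had 0 counts in the tumour.

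Other known inducers of Mt1 and Mt2 were read from lists. Beside them, edgeR called 12% of all genes tested higher and 14.1% lower in papilloma. In the tumour the shares were 11.9% higher and 10.6% lower. Of 8 glucocorticoid response genes, 5 fell and 1 rose in papilloma (median -0.75), and 1 rose and none fell by edgeR in the tumour (1 lower with an unadjusted p under 0.05, DESeq2 calls 0; median 0.38). Tsc22d3, which encodes the glucocorticoid-induced leucine zipper, fell in papilloma (-1.76 ± 0.13, edgeR adjusted p = 0.00578), as did Klf9 (log2 fold change -2.02) and Zbtb16 (-2.94), while Dusp1, a MAP kinase phosphatase gene, rose by 1.68. Between the cultures Tsc22d3 was at 23.5 CPM in mSCC-38 and 2.86 in mSCC-20, and Dusp1 at 11.8 and 292. Of 10 interleukin 6 and Stat3 genes, 5 rose and 1 fell in papilloma (median 1.33), and 1 rose and 1 fell in the tumour (median -0.23). The cytokine genes Osm and Il6 and the feedback inhibitor gene Socs3 rose in papilloma by 4.06, 3.26 and 2.20 on the log2 scale, Il6 from 0.121 CPM in skin to 1.13 and 1.24. The 5 neutrophil markers summed to 28.8 CPM in skin and to 2849 and 3832 in the papillomas, with 4 of them called higher, and Osm had 0 counts in both cultures. The part of neutrophils in these values was not tested. Saa3, an acute phase gene, rose in the tumour (3.32 ± 0.55, edgeR adjusted p = 0.0184). Of 9 oxidative stress genes, 5 rose and 2 fell in papilloma (median 1.12), and 3 rose and 2 fell in the tumour (median -0.12). The cystine transporter gene Slc7a11 rose in papilloma (2.47 ± 0.24, edgeR adjusted p = 0.00796), fell in the tumour (-1.83 ± 0.23, edgeR adjusted p = 0.00931), and was at 205 CPM in mSCC-38 against 21.4 in mSCC-20. The glutathione reductase gene Gsr rose in both comparisons, by 1.26 and 2.20, and Nqo1 in papilloma by 1.49. These lists were chosen with earlier results of these data known and are described by their counts.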

How the data were processed

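Total RNA (Qiazol, miRNeasy columns) from the 6 samples was prepared for SOLiD sequencing with a NEB small-library set, per the labels' protocols. The authors deposited raw counts per gene model and RPKM values; the build is mm9 according to the submitters' processing notes. No source used here names the aligner, the counting program or the use of strand. The deposited RPKM equal the count over gene length and a total of 99.2% to 99.6% of the summed counts, and served as an alternative.

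Counts of the 4 biopsies were fitted together with edgeR 4.0.16 (limma 3.58.1, R 4.3.3) by the quasi-likelihood test, TMM, default low-count filter by group and Benjamini-Hochberg adjustment over 16353 genes, called at an adjusted p under 0.05. The 95% intervals of edgeR fold changes used 4.81 degrees of freedom, and SE are the fold change over the square root of edgeR's F. DESeq2 1.42.0 was an alternative. CPM used TMM factors of all 6 libraries, log2 ratios were taken after adding 0.5 CPM to both libraries, and the test was checked on simulated counts.

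The members, lists and tests were chosen with earlier results of these data known. Besides the members, the text names genes within 100 kb, Mtf1, Slc30a1 and Slc39a10, up to 4 called genes of each list with the largest fold change, up to 2 list genes past the rule of size between the cultures, and the 5 nearest profiles per member. Krt1, Krt34, Foxn1, Tubb3 and Syt1 were named after their values were seen. Alternatives were DESeq2 size factors, total-count scaling, no filter, DESeq2's Wald test, all 6 libraries in 1 fit, each papilloma left out, 2 CPM added, deposited RPKM and, chosen after seeing the data, the Mt2 share per gene length.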

Additional observations from a re-analysis of the deposited data

How the results depend on the processing

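With total-count scaling, genes called in papilloma against skin numbered 1015 higher and 3484 lower, and the edgeR log2 fold change of Mt1 was -0.25 in papilloma (adjusted p = 0.335) and 0.13 in the tumour (adjusted p = 0.644). Without the filter on low counts Mt1 in the tumour was at 0.01 (0.00565, edgeR adjusted p = 1) and Mt4 in papilloma passed (-2.01, edgeR adjusted p = 0.0409). DESeq2's Wald test called Mt2 in the tumour (-0.68, adjusted p = 0.0171); its adjusted p for Mt3 in papilloma was not given. For the counts of genes called, the members' edgeR fold changes and the counts of members past the rule of size, the other 72 alternative values kept their direction and their side of the threshold, or stayed within 1.5 times the count. Of the ratios between single libraries and the Mt2 shares, 32 alternative values moved beyond counting error and 70 were counted as not moved. Among the moved, Mt1 in tumour against skin changed sign (0.17, against -0.12 with total-count scaling and with RPKM). The 70 include the values without a papilloma. Their limit was the SD of the 2 values that leaving out each papilloma gave, which nearly fixed the outcome in advance. For them, being counted as not moved says nothing about stability or counting error. For Mt4 the papillomas differed beyond counting error, papilloma 2 being 3.49-fold above papilloma 1 (counting interval 3.09 to 3.95). Without papilloma replicate 1 or 2, the log2 ratios to skin with 0.5 CPM added (with both, 0.17, -0.05, -1.02 and -1.997 for Mt1 to Mt4) ranged from 0.16 to 0.17 for Mt1, from -0.13 to 0.03 for Mt2, from -1.05 to -0.996 for Mt3 and from -3.14 to -1.37 for Mt4, and those of tumour to papilloma (with both, -0.00084, -0.67, 0.78 and -5.71) from -0.01 to 0.00429 for Mt1, from -0.75 to -0.59 for Mt2, from 0.75 to 0.80 for Mt3 and from -6.34 to -4.57 for Mt4. No paired analysis was possible because only papilloma has more than 1 library. Depth limits Mt3 and, in the tumour and cultures, Mt4.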
